A study of Mus musculus with 2 samples.

Results

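The cells described here were B cells from mouse liver, captured in 1 library that pooled 2 genotypes. Members were chosen by 2 measured counts. A cell of this library counted as a B cell when it held at least 2 UMIs (unique molecular identifiers, each standing for 1 captured transcript) of Cd79a, the signalling chain of the B cell receptor, and 0 UMIs of Cd3e, a chain of the T cell receptor complex. Of the 10026 cells of the library, 2149 met this rule. The deposited cell metadata name 4647 cells of the library as TG, of which 1029 were B cells, and hold no row for the other 5379 cells, of which 1120 were B cells. The comparison was between these unnamed B cells and the TG B cells. Cells of a second library served as a reference. It pooled wild type and P40-/-IL-2Ra-/- mice, whose age is also given as 10 weeks in the labels.

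In TG mice (dnTGFβRII) a transgene under the mouse CD4 promoter makes a form of the human type II TGF-β receptor that blocks signalling, so that it is aimed at T cells and not at B cells. The other mice of the pool were IFN-γ ARE-Del-/-, in which an AU-rich element that limits the life of the Ifng transcript is deleted. Both were on the C57BL/6 background, their age is given as 10 weeks in the labels, and CD45+ cells were taken from the liver. The methods of the paper give a somewhat younger age for TG mice. Sample tags told the genotypes apart during capture, but only the result for the TG cells was used here. The unnamed cells can therefore hold IFN-γ ARE-Del-/- cells, cells with no clear tag and TG cells that the authors filtered away, and these cannot be told apart. All cells came from 1 capture library with no replicate of either set, so no test was made. All intervals are at 95% and cover counting error only.

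IFN-γ binds a receptor of 2 chains, Ifngr1 and Ifngr2, whose kinases Jak1 and Jak2 pass the signal on. It reaches promoters that hold GAS letters and switches on Irf1, whose product binds the related ISRE letters. Among the classic targets are the immunity-related GTPases (Irgm1, Irgm2, Igtp, Iigp1, Ifi47, Tgtp1 and Tgtp2) and the guanylate-binding proteins (Gbp genes), which attack the membranes of vacuoles that hold intracellular microbes, together with the genes of MHC class I presentation. In B cells IFN-γ also favours the transcription factor T-bet (Tbx21) and the switch to the IgG2c isotype.

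The promoters of 4 GTPases are shown because GAS letters and those bound by the IRF family can be seen in them. RefSeq starts were matched for 10 of the 17 GTPases in the list, and the 250 bases before each start were searched on both strands for GAS letters (TTCNNNGAA) and for the ISRE core (GAAA, any 2 bases and GAAA again). GAS letters were found in 6 of the 10, the ISRE core in 9, both in 6 and neither in 1, the promoter of Ifi47. Over 32851 promoters of the same length, 7.02% held GAS letters, 2.98% held the ISRE core and 0.332% held both. The sequences are those of RefSeq on GRCm38.p6, written 5′ to 3′ on the strand of the gene, with motif letters in capitals. Those of Igtp (chr11:58199306-58199555, plus strand), Irgm2 (chr11:58214727-58214976, plus strand) and Tgtp2 (chr11:49064213-49064462, minus strand) belong to genes that were higher in unnamed B cells. That of Gbp7 (chr3:142530086-142530335, plus strand) belongs to the gene with the lowest ratio among the 16 tested GTPases of the list, and it held the same 2 motifs.
Igtp: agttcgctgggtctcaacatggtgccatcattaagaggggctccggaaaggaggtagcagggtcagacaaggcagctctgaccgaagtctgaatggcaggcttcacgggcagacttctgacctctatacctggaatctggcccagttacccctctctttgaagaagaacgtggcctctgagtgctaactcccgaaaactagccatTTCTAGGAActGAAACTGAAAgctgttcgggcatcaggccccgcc
Irgm2: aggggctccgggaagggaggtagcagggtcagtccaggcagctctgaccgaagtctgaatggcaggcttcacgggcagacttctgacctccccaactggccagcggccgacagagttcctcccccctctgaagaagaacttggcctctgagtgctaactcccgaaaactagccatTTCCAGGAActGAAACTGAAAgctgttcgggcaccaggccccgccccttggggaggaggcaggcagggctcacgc
Tgtp2: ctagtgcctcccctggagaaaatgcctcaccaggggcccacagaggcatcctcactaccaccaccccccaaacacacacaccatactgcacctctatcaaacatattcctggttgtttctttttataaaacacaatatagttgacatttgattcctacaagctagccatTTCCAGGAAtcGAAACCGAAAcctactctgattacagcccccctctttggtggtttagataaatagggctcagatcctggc
Gbp7: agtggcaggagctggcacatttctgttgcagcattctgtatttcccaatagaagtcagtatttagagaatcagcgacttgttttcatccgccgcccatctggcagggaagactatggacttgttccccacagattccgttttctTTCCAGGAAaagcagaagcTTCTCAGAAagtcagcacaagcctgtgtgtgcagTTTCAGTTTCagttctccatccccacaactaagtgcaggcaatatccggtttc

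B cells made up 20.8% (19.7 to 21.9) of the unnamed cells and 22.1% (20.96 to 23.4) of the TG cells. The difference of -1.32 percentage points had an interval of -2.94 to 0.289. With a minimum of 5 Cd79a UMIs in place of 2 it was -2.09 points (-3.66 to -0.524), and with a minimum of 1 it was 0.193 points (-1.50 to 1.88). After each cell was thinned to 1000 UMIs it was -2.23 points (-3.87 to -0.592). At the edge of the rule, the 51 unnamed and 22 TG cells with exactly 2 Cd79a UMIs held 58.9 and 242 UMIs of Cd79b per 1000000 UMIs (CPM), and the 27 and 11 cells with 3 held 480 and 509 CPM. The 203 unnamed and 105 TG cells with 1 Cd79a UMI, which stayed outside, held 41.6 and 16.4 CPM. Of the TG members, 988 (96.0%) carried a B cell name from the authors, 847 as mature and 141 as immature B cells. These 988 were 78.4% of the 1261 TG cells with a B cell name. A further 529 unnamed and 392 TG cells had at least 2 Cd79a UMIs but also Cd3e and stayed outside.

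The median cell held 2760 UMIs in the unnamed and 3044 in the TG set, and the summed sets held 3841443 and 3679504 UMIs. The mitochondrial percent had medians of 6.84 and 7.41, 95th percentiles of 12.7 and 10.1 and maxima of 54.6 and 24.0. Ribosomal protein genes took 14.3% and 16.8% of the UMIs. Among the unnamed members 21 lay outside the range of the TG cells in UMIs, genes or mitochondrial percent. B cell markers fixed for these cells summed to 14053 CPM in unnamed and 15375 CPM in TG cells, with none of the 10 at 0. Cd79a is among them and was above 0 by the rule. Markers of other cells moved with the comparison. Those of macrophages and monocytes summed to 278 against 131 CPM, with at least 5 such UMIs in 3.30% of unnamed and 1.26% of TG B cells. Those of NK and cytotoxic cells summed to 1190 against 836 CPM, those of plasmacytoid dendritic cells to 55.7 against 32.3 CPM, and those of T cells to 374 against 330 CPM, where Cd3e was at 0 by the rule. Neutrophil markers ran the other way, at 1199 against 1713 CPM. None of the markers of these lists was at 0 apart from Cd3e, and doublets were marked in 1.70% of unnamed and 0.486% of TG members. Their part in the results was not tested, but a number of values are also given for the 422 unnamed and 348 TG members with no UMI of 16 genes of other cell types, called clean cells here, a set chosen after the data were seen. Many clean-cell ratios of single genes rest on fewer UMIs than the 50 asked for over all members, and their intervals are wide. In the first library 61 members carried a cell index that also occurs in the second library.

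Tgfbr2, the mouse gene of the receptor whose human form the transgene carries, was checked first. Reads were mapped to the mouse genome, and whether the Tgfbr2 count holds reads of the transgene was not tested. Tgfbr2 stood at 347 CPM in TG T cells and at 161 CPM in unnamed T cells, beside 158 CPM in the T cells of wild type (WT) mice in the second library, which pooled WT with P40-/-IL-2Ra-/- mice. In B cells it stood at 178 CPM in the unnamed and 172 CPM in the TG set. Ifng stood at 291 CPM in unnamed T cells and 201 CPM in TG T cells, beside 228 CPM in WT T cells. Within B cells its 47 and 40 UMIs gave 12.2 and 10.9 CPM.

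The GTPase genes of the IFN-γ response were higher in unnamed than in TG B cells. Across 8903 genes with at least 50 UMIs over both sums, 199 were at least 2-fold higher in unnamed cells (2.24%) and 62 at least 2-fold lower (0.696%). The median log2 ratio was 0.05, and 59.1% of genes lay above 0. Of the 17 GTPases, 16 had enough UMIs, 15 of them lay above 0, 7 were at least 2-fold higher and none was 2-fold lower. Their median log2 ratio was 0.95, and it was 0.86 over the 13 that had enough UMIs in clean cells. Together all 17 took 1706 CPM in unnamed and 954 CPM in TG B cells. Gbp2b, a guanylate-binding protein gene that the list did not hold, was more than 2-fold lower, with a log2 ratio of -1.92.

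Iigp1 had the widest difference of the 16 tested GTPases. Its product loads onto the vacuole of Toxoplasma and helps to break it. It gave 923 UMIs in unnamed and 123 in TG B cells, or 240.3 CPM (225 to 256) against 33.4 CPM (27.8 to 39.9), and the log2 ratio was 2.84 (2.57 to 3.13). The ratio was 2.85 (2.40 to 3.35) in clean cells. UMIs were spread over many cells, since 34.6% of unnamed and 6.997% of TG B cells held at least 1, and the top 3 cells took 3.03% and 13.0% of them. After each cell was thinned to 1000 UMIs the shares were 18.9% (16.7 to 21.3) and 3.40% (2.38 to 4.70), beside 7.33% and 1.83% in T cells of the same library.

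The other immunity-related GTPases were all higher in the unnamed set. Igtp (Irgm3), which sits on the endoplasmic reticulum and on lipid droplets, gave 126 against 42.7 CPM with a log2 ratio of 1.56 (1.30 to 1.83). Tgtp2 gave 29.7 against 13.9 CPM (1.09, 0.61 to 1.60), and its near-identical copy Tgtp1 had only 30 and 3 UMIs, so that reads of this pair may have been split between them. Irgm1 and Irgm2, regulators that hold the effector GTPases inactive on self membranes, gave ratios of 0.93 (0.74 to 1.13) and 0.98 (0.66 to 1.30), and Ifi47 gave 0.69 (0.53 to 0.86). The annotated spans of Igtp and Irgm2 overlap on chromosome 11, and how the counting treated such reads is not given in the sources used here.

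The guanylate-binding proteins are described by locus, and the difference between loci was not tested. The 5 on chromosome 5, between 105014150 and 105293698 (GRCm38), had a median log2 ratio of 1.58, with Gbp8 at 1.81 (1.12 to 2.60), Gbp6 at 1.61 (1.25 to 1.99), Gbp10 at 1.58 (0.75 to 2.56), Gbp4 at 1.09 (0.84 to 1.35) and Gbp9 at 0.45 (0.12 to 0.80). The spans of Gbp4, Gbp8 and Gbp9 overlap and these genes are close copies, so the division of reads among them is uncertain. The 4 of the list on chromosome 3, between 142493978 and 142638008, had a median of 0.40, with Gbp2 at 0.65 (0.46 to 0.84), Gbp5 at 0.42, Gbp3 at 0.37 and Gbp7 at -0.03 (-0.17 to 0.10). The loci overlapped, since Gbp2 lay above Gbp9. Among the members whose profile was nearer to wild type B cells named mature by the authors (the mature-named side), Gbp2, Gbp3, Gbp5 and Gbp7 gave 1.10, 0.76, 0.46 and 0.92. Gbp2b, which lies between Gbp3 and Gbp2 and was not in the list, was lower in unnamed cells, at 17.4 against 66.3 CPM (-1.92, -2.34 to -1.53). The very large GTPase Gvin1 on chromosome 7 gave 0.48 (-0.11 to 1.10). The plot of GTPase levels and ratios gives all of these side by side with the receptor and JAK-STAT genes.

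**Figure D1:**
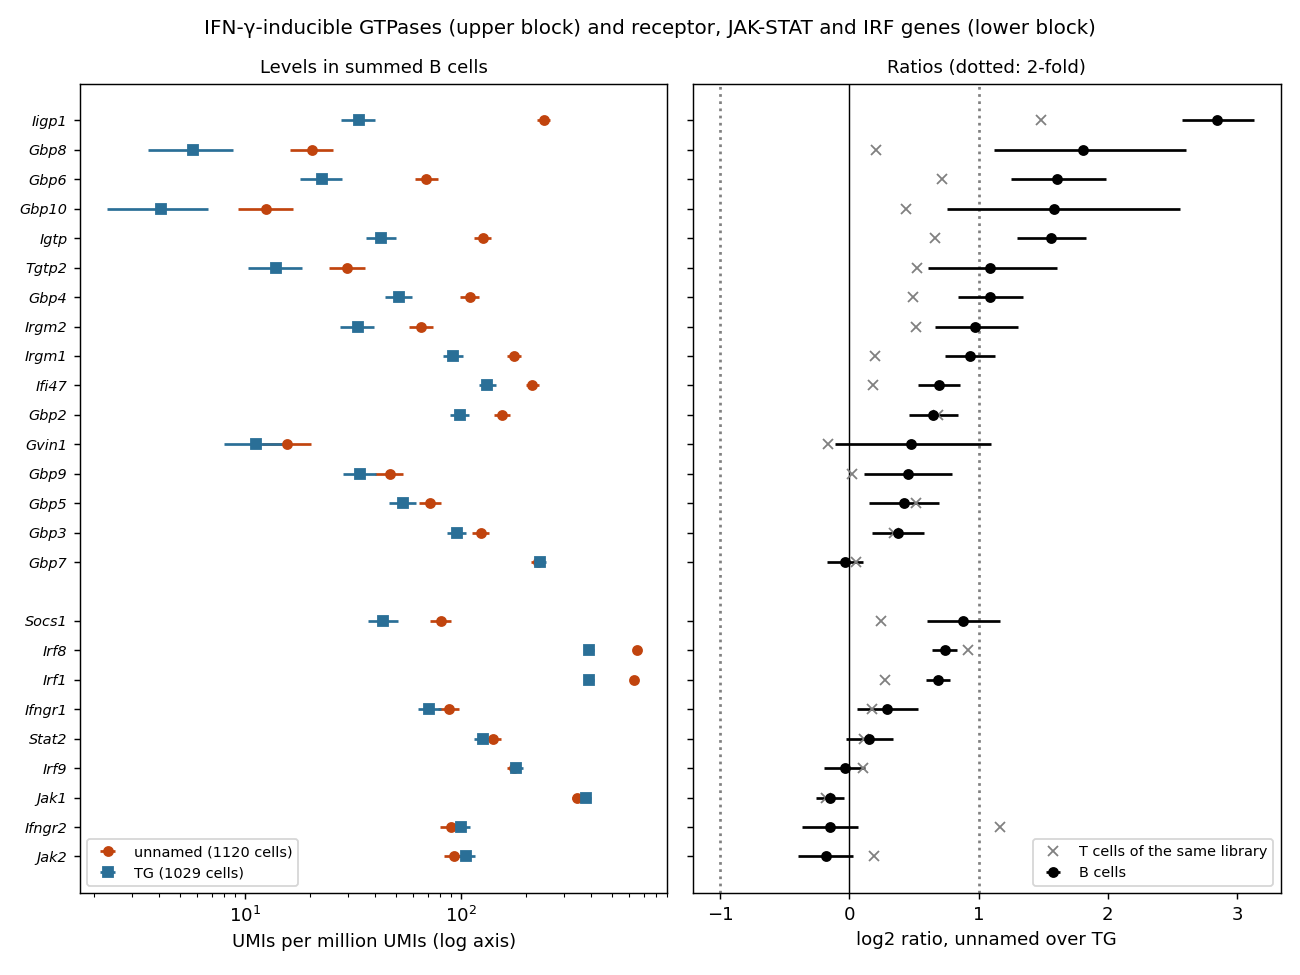
Left, levels in CPM (log axis) of 16 GTPases and 9 receptor, JAK-STAT and IRF genes in the summed unnamed (circles) and TG (squares) B cells; right, their log2 ratios in B cells (circles) and in T cells of the same library (crosses), with bars for 95% counting intervals. Iigp1 stands at 2.84 in B cells and 1.49 in T cells, while Gbp7 and the receptor and kinase genes at the bottom lie near 0 in B cells.

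The difference was spread over many cells. The median unnamed B cell held 4 UMIs of the 17 GTPases and the median TG B cell held 2. No such UMI was found in 6.34% (4.98 to 7.93) of unnamed and 18.7% (16.3 to 21.2) of TG B cells. With each cell thinned to 1000 UMIs the shares were 28.9% (26.3 to 31.7) and 46.9% (43.9 to 50.04), while the median was 1 UMI in both sets and the upper quartile 3 and 1. The most in 1 cell was 49 UMIs in the unnamed and 48 in the TG set, so the ranges of single cells overlapped.

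**Figure D2:**
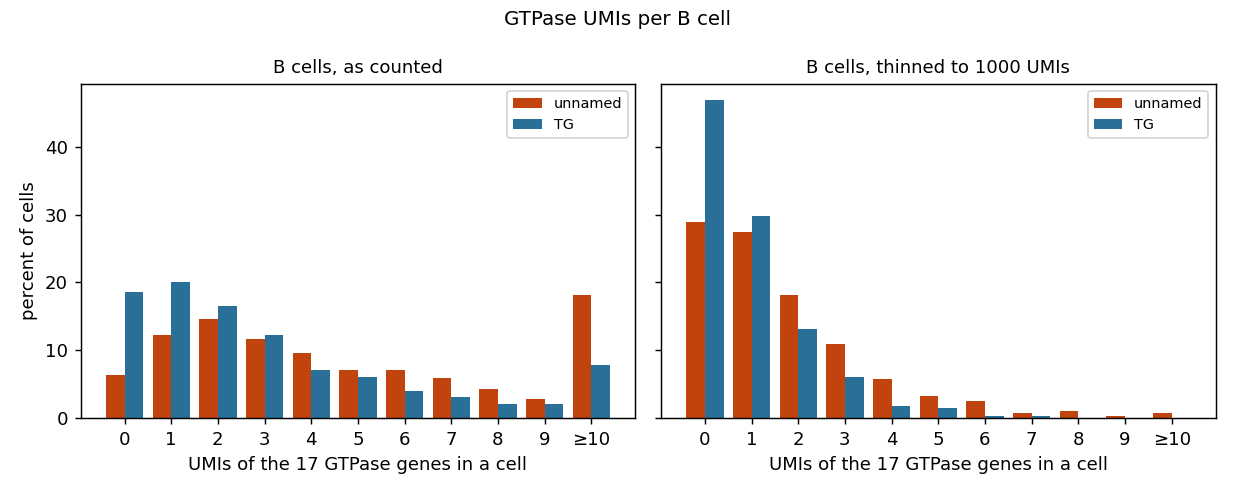
Percent of B cells (vertical axis) by the number of UMIs of the 17 GTPase genes in the cell (horizontal axis), for unnamed and TG cells, as counted on the left and after thinning each cell to 1000 UMIs on the right. Cells with 0 UMIs are 6.34% of the unnamed and 18.7% of the TG set as counted, and 28.9% and 46.9% after thinning.

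Genes that carry the IFN-γ signal went both ways. The receptor chains and kinases lay within 0.30 of 0: Ifngr1 gave 0.30 (0.06 to 0.54), Ifngr2 -0.15 (-0.37 to 0.06), Jak1 -0.15 and Jak2 -0.18. Irf1, Irf8 and Socs1, which IFN-γ itself induces, were higher in unnamed cells. Irf1 gave 631 against 392 CPM (0.69, 0.59 to 0.78), and Irf8, a regulator of B cell and myeloid genes, gave 651 against 390.3 CPM (0.74, 0.64 to 0.83). Socs1, the feedback inhibitor of the JAK kinases, gave 80.2 against 43.5 CPM (0.88, 0.60 to 1.17). On the mature-named side Irf1 gave 0.76, Irf8 only 0.40 (0.29 to 0.51) and Socs1 1.29. Cish, a feedback inhibitor of Stat5 signals, was lower, at 11.2 against 27.5 CPM (-1.28, -1.84 to -0.77), but on the mature-named side its ratio was -0.43 (-1.24 to 0.35). Over the 24 genes of the list the median was 0.06, with 14 above 0, beside 59.1% of all genes. None of the 24 was 2-fold higher and Cish was 2-fold lower.

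Genes best known as type I interferon targets lay near the values of all genes in this comparison. Of 44 tested, 26 lay above and 18 below 0, beside 59.1% of all genes above 0. Their median was 0.10, beside 0.05 for all genes. None was 2-fold higher, and Slfn5, a member of the Schlafen family, was 2-fold lower at 64.3 against 131 CPM (-1.03, -1.26 to -0.81). The antiviral genes Ifit3, Oas1a and Oas2 gave -0.25, -0.50 and -0.63 on 21.7 CPM or less in either set, while Isg15 gave 0.45 (-0.02 to 0.93). Stat2 and Irf9, which belong to the type I complex, gave 0.15 (-0.03 to 0.34) and -0.04.

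All 23 genes of MHC class I presentation and the immunoproteasome lay above 0, none by 2-fold, with a median of 0.40 that was 0.43 in clean cells. Nlrc5, the transactivator of class I genes, gave 169 against 100.3 CPM (0.75, 0.57 to 0.94). The class Ib gene H2-Q7 gave 1084 against 661 CPM (0.71, 0.64 to 0.79), although H2-Q genes are close copies of each other and reads may be shared. Psmb9, a catalytic subunit of the immunoproteasome, gave 360.0 against 228 CPM (0.66), and the peptide transporter Tap1 gave 413 against 265 CPM (0.64). The classical chain H2-D1 differed less (0.20, 0.17 to 0.24), and the chaperone Canx had the lowest ratio (0.05, -0.07 to 0.17). MHC class II genes were nearer to even, with 14 above and 7 below 0 and a median of 0.12. H2-Aa and H2-Ab1 gave 0.12 and 0.21, the class II transactivator Ciita 0.12 (-0.01 to 0.24), and March1, a ligase that removes class II from the surface, -0.55 (-0.70 to -0.40).

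Several genes outside the IFN lists ranked among the 15 highest and had clean-cell ratios over 2-fold, of which only those of Ffar2, Mpeg1, Gng12, App and Serpinb6b had intervals wholly above 2-fold. Ffar2, a receptor for the short-chain fatty acids made by gut bacteria, gave 91.6 against 14.1 CPM, a log2 ratio of 2.69 (2.27 to 3.15) that was 2.78 in clean cells. A UMI of it was found in 18.4% of unnamed and 3.30% of TG B cells, beside 1.31% and 1.36% of T cells. In cells with at least 5 UMIs of the lysozyme gene Lyz2, Ffar2 stood at 40.6 CPM in unnamed and 66.0 CPM in TG cells. B cells of the second library held 65.0 CPM without a WT row and 3.38 CPM in WT cells. Mpeg1, which encodes the pore-forming perforin-2, gave 144 against 30.4 CPM (2.24, 1.95 to 2.55) and 2.40 in clean cells. The chemokine receptor Cxcr3 gave 31.2 against 7.88 CPM (1.97, 1.39 to 2.63) and 1.98 (0.78 to 3.64) in clean cells, App gave 1.89 and 2.41 (1.03 to 4.53), and the G protein subunit Gng12 gave 2.25 and 2.26 (1.09 to 3.90). Mpeg1 and App also stood at 611 and 332 CPM in unnamed cells with at least 5 UMIs of the lysozyme gene Lyz2. F2rl1, a receptor cut open by proteases, gave 1.86 and 1.44 (0.42 to 2.68), and Serpinb6b, an inhibitor of proteases, gave 1.91 with 52.3% of its unnamed UMIs in 3 cells. The ratio of Serpinb6b was 2.28 (1.00 to 4.11) in clean cells on 29 and 5 UMIs, 1.03 on the mature-named side and 0.55 among members with at least 5 Cd79a UMIs. In T cells of the library the ratios were 2.02 for Mpeg1, 1.15 for Gng12, 1.13 for App and 0.38 for Ffar2. Those of F2rl1, Serpinb6b and Cxcr3 were 0.10, -0.05 and -0.22 there. Mpeg1 stood at 41.1 against 10.1 CPM in T cells and Cxcr3 at 187 against 218 CPM.

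Other high-ranking genes had lower ratios in clean cells, on few UMIs. Ly6i gave 2.60 over all members and 0.30 (-1.53 to 2.34) in clean cells, Ms4a6c 2.55 and -0.03 (-1.33 to 1.30), and Ccr2 2.10 and -0.68 (-3.00 to 1.34). Clec4a1 gave 1.87 and 0.34 (-2.69 to 4.02), and Car2 1.93 and 0.54 (-1.01 to 2.33), with intervals that hold the ratio over all members. On the mature-named side Ly6i, Clec4a1 and Car2 gave 2.32, 2.05 and 1.82. Fcgr4, an Fc receptor of myeloid cells, gave 2.41 and 1.54 (-0.01 to 3.72). Ly6i, Ms4a6c, Fcgr4 and Clec4a1 reached 672 to 1509 CPM in the 161 unnamed cells with at least 5 UMIs of the lysozyme gene Lyz2, against 28.1 to 84.9 CPM in the unnamed B cells. In T cells of the library Car2, Ly6i, Clec4a1 and Fcgr4 gave ratios of 2.36, 2.33, 2.25 and 2.12. Ms4a6c and Ccr2 gave 1.49 and 0.59 there. The highest ratio of the ranked genes belonged to the constant region gene Ighg2c, at 607 against 38.3 CPM (3.98, 3.74 to 4.24), but 1 cell held 2051 of its 2331 unnamed UMIs. Without that cell the unnamed level was 72.9 CPM. In clean cells Ighg2c gave 0.07 (-0.55 to 0.70) on 49 and 42 UMIs, and on the mature-named side 0.53 (0.16 to 0.90).

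Genes linked to T-bet-expressing B cells had a median of 0.49, with 16 of 19 above 0 and 5 at least 2-fold higher, against 2.24% of all genes. These were Ighg2c, with most of its UMIs in 1 cell, Ccr2, which was not higher in clean cells, Cxcr3, Itgax and Il12rb1. Tbx21 itself gave 29.7 against 16.03 CPM (0.88, 0.42 to 1.37) and 1.04 in clean cells. Il12rb1, a chain of the IL-12 receptor, gave 10.7 against 4.08 CPM on 41 and 15 UMIs (1.36, 0.50 to 2.35). Itgax, the gene of CD11c, gave 1.85 over all members and 0.32 in clean cells. Fcrl5, another gene of the list, was lower (-0.58, -0.93 to -0.24).

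Many of the genes lower in unnamed B cells stood higher in a minor group of the members. Each member was placed with the WT B cells that the authors named mature (1283 cells) or immature (166 cells), whichever profile over 7086 genes was nearer. On the side of the immature-named cells lay 129 of 1120 unnamed members, 11.5% (9.71 to 13.5), and 204 of 1029 TG members, 19.8% (17.4 to 22.4). The placing put 813 of 847 TG cells named mature and 140 of 141 named immature on the side of their name. Of the 204 TG members on the immature-named side, 140 were named immature B, 34 mature B and 30 something other than a B cell. The markers of the side did not follow its name. In the TG cells of this side S100a6, a calcium-binding protein, stood at 2053 CPM against 143 CPM on the other, and the B-1 list genes Ahnak (1266 against 183 CPM), Zbtb32 (196 against 1.61), Bhlhe41 (99.9 against 11.3) and Plac8 (1989 against 624) ran the same way. The immature B cell gene Vpreb3 stood lower there, at 36.1 against 136 CPM, as did the follicular genes Fcer2a (68.8 against 549.7) and Cr2 (38.6 against 241). These genes helped to place the cells, so their levels are a description of the 2 sides.

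Within each side the lower genes behaved differently. The B-1 list markers of the immature-named side were themselves lower in its unnamed than in its TG cells. Zbtb32 stood at 117 against 196 CPM, Ahnak at 568 against 1266, Plac8 at 1543 against 1989 and Bhlhe41 at 80.7 against 99.9. The intervals of Bhlhe41 overlapped (63.3 to 101 and 82.8 to 120). Myb and Cd93 went the other way, at 11.1 against 1.68 and 11.1 against 3.36 CPM, on few UMIs. The part of this in the values of that side was not tested. On the mature-named side Zbtb32 and Bhlhe41 were higher in unnamed cells, at 8.51 against 1.61 and 23.5 against 11.3 CPM. Plac8 stood at 723 against 624 CPM there and Ahnak at 149 against 183 CPM. Prkar2b, a regulatory subunit of protein kinase A, had the lowest ratio of the ranked genes, receptor segments left out (-2.91, -3.52 to -2.38) with 8.07 against 61.4 CPM. On the immature-named side it stood at 26.5 CPM in unnamed and 180 CPM in TG cells, and on the mature-named side at 2.38 and 4.82 CPM. Gbp2b stood at 66.3 and 197 CPM on the first side and at 2.38 and 3.62 CPM on the second. S100a6, at 317 against 762 CPM over all members (-1.26, -1.36 to -1.17), stood at 944 and 2053 CPM on the first side, and on the second its ratio was only -0.21 (-0.43 to -0.00). Lifr, the receptor for leukaemia inhibitory factor, was lower on both sides, with 15.5 against 77.2 CPM and 3.75 against 28.9 CPM, and its ratio was -2.75 over all members and -3.13 in clean cells. Diras2, a small GTPase (-2.22), and the plakin Ppl (-1.51) were also lower on both sides, while the actin-linked Lmo7 (-2.20) was seen almost solely on the immature-named side, with 2 and 1 UMIs on the other.

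The rest of the 15 lowest genes fell into 2 kinds by how their UMIs were spread. Lmna, the gene of nuclear lamins A and C, gave 14.1 against 51.9 CPM (-1.88, -2.35 to -1.44) and -2.62 in clean cells, and a UMI of it was found in 3.12% of unnamed and 9.33% of TG B cells. On the mature-named side Lmna gave -0.54 (-1.45 to 0.34). The transcription factor gene Rfx2 gave -1.89 and -1.46 in clean cells, the small GTPase gene Rab31 -1.31 and -1.45, and Gas7 -1.26 and -1.55. On the mature-named side Rfx2 gave -0.97, Rab31 -1.14 and Gas7 0.50 (-0.68 to 1.82). For the neutrophil-type genes Chil3 (-2.08) and Camp (-1.90), 3 cells held 91.9% and 95.3% of the TG UMIs, and the clean-cell ratios were 0.09 (-1.86 to 2.17) and -0.27 (-1.60 to 1.03). For Apol7c (-1.48) 3 cells held 100% of the TG UMIs.

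**Figure D3:**
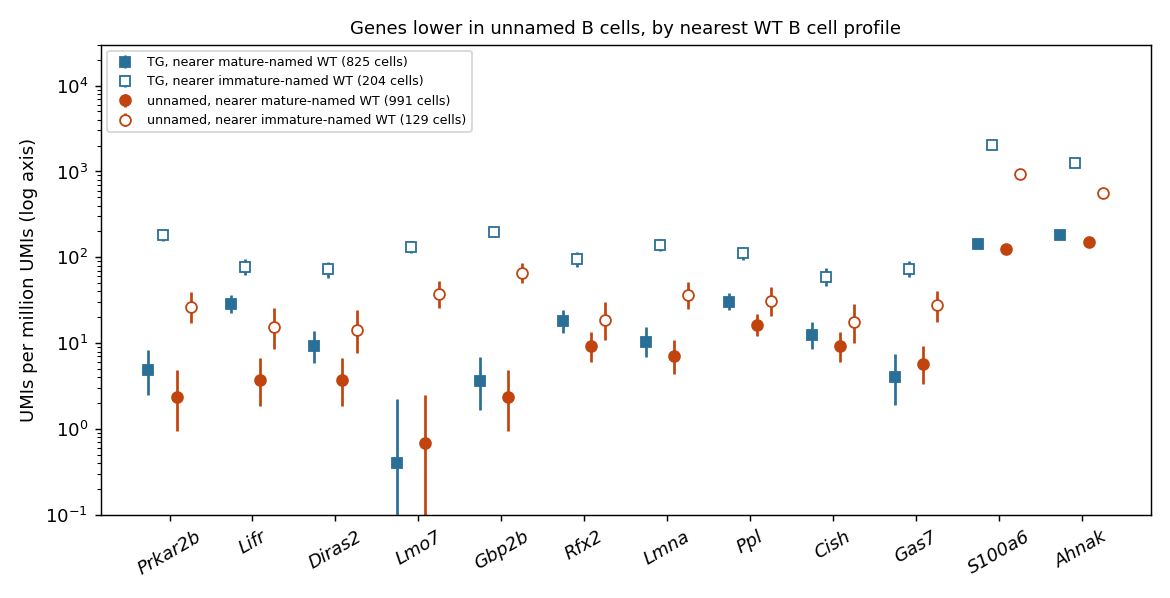
Levels in CPM (log axis) of 12 genes lower in unnamed B cells, for members nearer the WT cells named mature (filled) or immature (open), in unnamed (circles) and TG (squares) cells, with 95% Poisson bars cut at the lower edge for Lmo7. Prkar2b, Lmo7 and Gbp2b stand far higher on the immature-named side in both sets, and on that side the unnamed cells lie below the TG cells for every gene drawn. The genes were chosen as lower in unnamed cells over all members, so this direction partly follows from the choice.

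The GTPases were also higher in unnamed cells among the members of the mature-named side alone. There 15 GTPases had enough UMIs, all 15 lay above 0 and 8 were at least 2-fold higher, against 1.32% of all genes tested there, with a median of 1.04. Iigp1 gave 2.68 (2.39 to 2.99) and Igtp 1.72 (1.40 to 2.06). Gbp7, even over all members, gave 0.92 (0.72 to 1.13) there, and Gbp2 gave 1.10. On the immature-named side the GTPases went both ways. Of 11 with enough UMIs, 9 lay above and 2 below 0, with a median of 0.52, and 4 were at least 2-fold higher against 4.5% of genes there. Iigp1 gave 129 against 14.3 CPM (3.14, 2.44 to 4.01), while Gbp7 was lower in unnamed cells at 231 against 468 CPM (-1.02, -1.25 to -0.79), as was Gbp3 (-0.41, -0.80 to -0.03). Genes at least 2-fold lower were 1.87% of those tested on this side.

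The other gene lists, with the marker lists of other cell types left aside, differed less. Across all tested genes 59.1% lay above 0, and the median log2 ratio was 0.05. Cell cycle genes had a median of 0.32 with 26 of 30 above 0, led by Pclaf (1.43, 1.03 to 1.85) and Rrm2 (1.35, 0.81 to 1.94), but in clean cells Pclaf gave -0.63, Top2a -0.93 and Mki67 -0.30. The BCL-2 family had a median of 0.26, with the survival gene Bcl2 at 169 against 99.2 CPM (0.77, 0.58 to 0.96) and 0.47 in clean cells. All 16 heat shock genes lay above 0, with a median of 0.19 and Hsph1 the highest at 0.60. Genes of the BAFF, CD40 and TNF receptor family had a median of 0.30, plasma cell genes 0.35, marginal zone genes 0.27 and germinal centre genes 0.21. Chemokine receptor and homing genes had a median of 0.16 with 17 of 26 above 0.

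Among receptors for cytokines the directions were mixed, with 14 of 20 above 0 and a median of 0.22. Il4ra gave 232 against 148 CPM (0.65, 0.49 to 0.80) and 0.78 in clean cells, and Il9r gave 114 against 69.3 CPM (0.71, 0.49 to 0.94) and 0.80. Csf2rb, the shared chain of the receptors for IL-3, IL-5 and GM-CSF, was lower (-0.76, -0.98 to -0.54), and so was Il2ra on 19 and 55 UMIs (-1.57, -2.43 to -0.82). Il2ra stood at 4.95 CPM in unnamed and 14.9 CPM in TG B cells, beside 3.38 CPM in WT B cells. The antibody against its protein, CD25, gave -0.02 (-0.06 to 0.01). Immediate early and NF-κB genes had a median of 0.09, with 22 of 40 above 0, but the NF-κB brake Tnfaip3 gave 194 against 95.4 CPM (1.02, 0.84 to 1.21) and 0.58 in clean cells. Egr3 gave 0.80 and 0.79, and Atf3 -0.81 and -0.30.

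Genes of B cell receptor signalling had a median of -0.13 with 19 of 29 below 0. The inhibitory receptor Cd72 stood out at 239 against 138 CPM (0.80, 0.64 to 0.96), and Siglecg, another inhibitory receptor, was the lowest (-0.37). Follicular genes had a median of -0.01, with Fcmr, the receptor for IgM, at 0.41 and the egress receptor S1pr1 at -0.42. B-1 list genes had a median of -0.20, with S100a6 and Ahnak (-1.11, but -0.29 on the mature-named side) 2-fold lower and Spn, the gene of CD43, highest at 0.92. TGF-β pathway genes had a median of 0.05, with Tgfbr2 at 0.05 (-0.11 to 0.21) and the pathway repressor Ski at -0.65 (-0.96 to -0.35). The 11 immature B cell genes with enough UMIs had a median of 0.24 and ranged from -0.63 to 1.56, with Lef1 (44 and 14 UMIs) and Myb (56 and 25 UMIs) the highest. The plot of the gene lists sets these medians beside the GTPases.

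**Figure D4:**
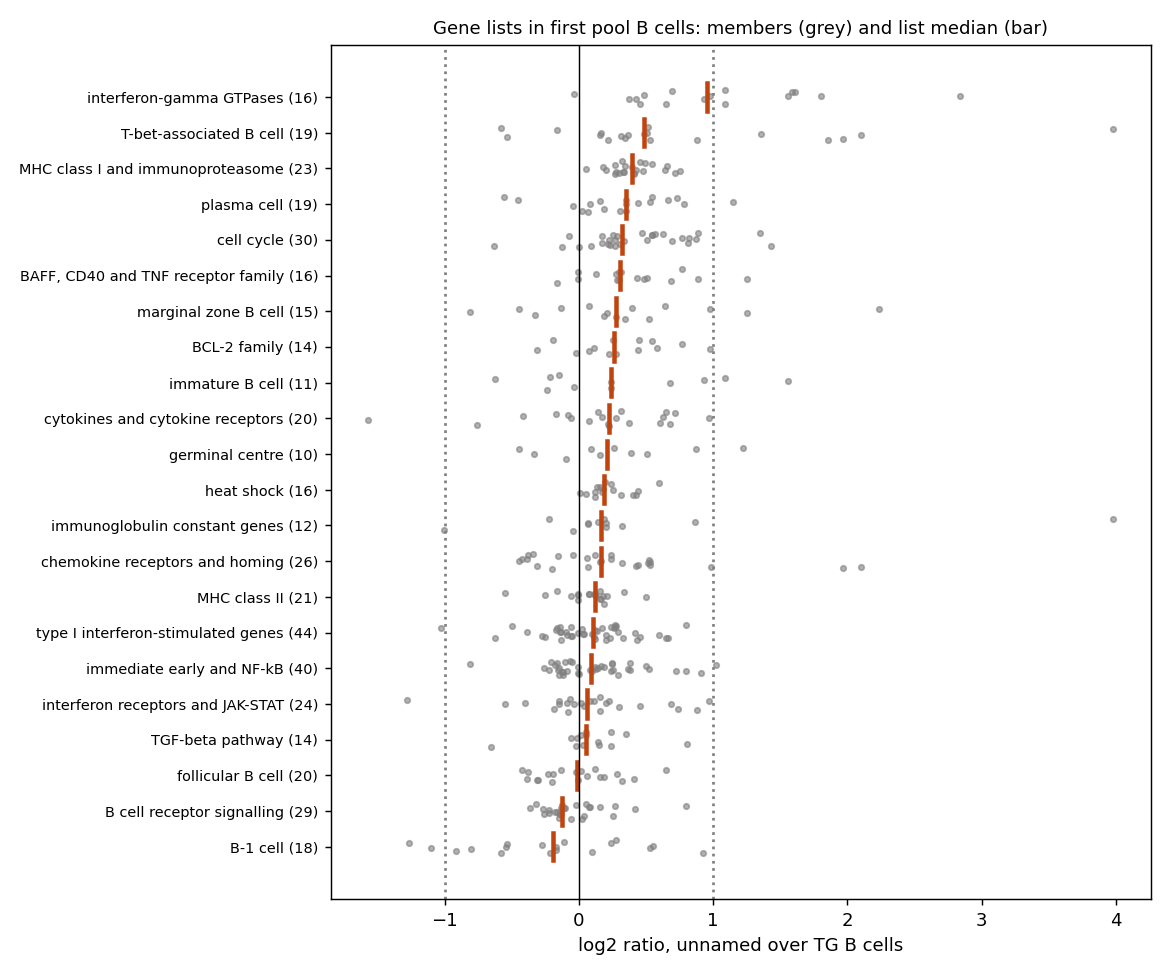
Log2 ratios of unnamed over TG B cells (horizontal axis) for the genes of 22 lists, each grey point 1 gene and each bar the median of the list, with the number of genes in brackets. The GTPase median of 0.95 is the highest, followed by the T-bet-associated list at 0.49 and MHC class I at 0.40, and the B-1 list at -0.20 is the lowest.

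Class-switched cells were few in both sets. Cells were read for isotype where the most abundant constant region had at least 3 UMIs, with Ighm and Ighd summed. Of these, 44 of 1081 unnamed (4.07%, 2.97 to 5.43) and 18 of 1010 TG B cells (1.78%, 1.06 to 2.80) were led by an IgG, IgA or IgE constant region. IgA led with 26 and 13 cells. IgG2c, the isotype favoured by IFN-γ, led in 7 unnamed and 0 TG cells, where 0 of 1010 allows a share of up to 0.297% by a floor of 3 counts, and IgG2b in 9 and 2. Cells with at least 20 UMIs of Jchain, which links secreted IgA and IgM, numbered 10 (0.893%) and 7 (0.680%).

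Surface proteins were counted with 49 antibodies, of which 48 had enough UMIs, and each was taken as a share of all antibody UMIs, since the median cell held 1771 antibody UMIs in the unnamed and 2457 in the TG set. The median log2 ratio of the 48 was 0.28, and a lower share of any antibody raises the shares of the others. Of the 48, 7 were at least 2-fold higher in unnamed cells (14.6%) and 1 was 2-fold lower (2.08%). CD23, the low-affinity IgE receptor of follicular B cells, was the lower one. It took 3.23% of antibody UMIs in unnamed and 8.69% in TG B cells, a log2 ratio of -1.43 that was -1.54 in clean cells and -1.63 on the mature-named side. The median cell held 37 CD23 UMIs (quartiles 8 and 92) in the unnamed and 181 (58 and 373) in the TG set. The transcript Fcer2a differed far less, at 343 against 394 CPM (-0.20, -0.31 to -0.09). WT B cells of the other library lay between, at 4.44%.

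Of the 7 higher proteins, 3 stayed over 2-fold higher in clean cells, or 6.25% of the 48, with CD95 and CD43 among them. By the median centred log ratio per cell none of the 7 reached 2-fold, and CD95 and CD43 differed by 0.98 and 0.86. CD95, the death receptor Fas, took 0.202% against 0.0552% (1.87, clean cells 1.48), with medians of 2 and 1 UMIs, and its transcript gave 0.50 (-0.10 to 1.13). CD43 took 0.728% against 0.216% (1.75, clean cells 1.40), and its transcript Spn gave 0.92 (0.64 to 1.21). The other 4 fell below 2-fold in clean cells, with CD366 at 0.92, CD11c at 0.77, CD9 at 0.16 and CD172a at -0.16. In the unnamed set 50.9 to 71.7% of the UMIs of these 4 lay in 20 cells. IgM was lower (-0.48, but -0.16 on the mature-named side), as was its transcript Ighm (-0.23), while IgD gave 0.07.

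**Figure D5:**
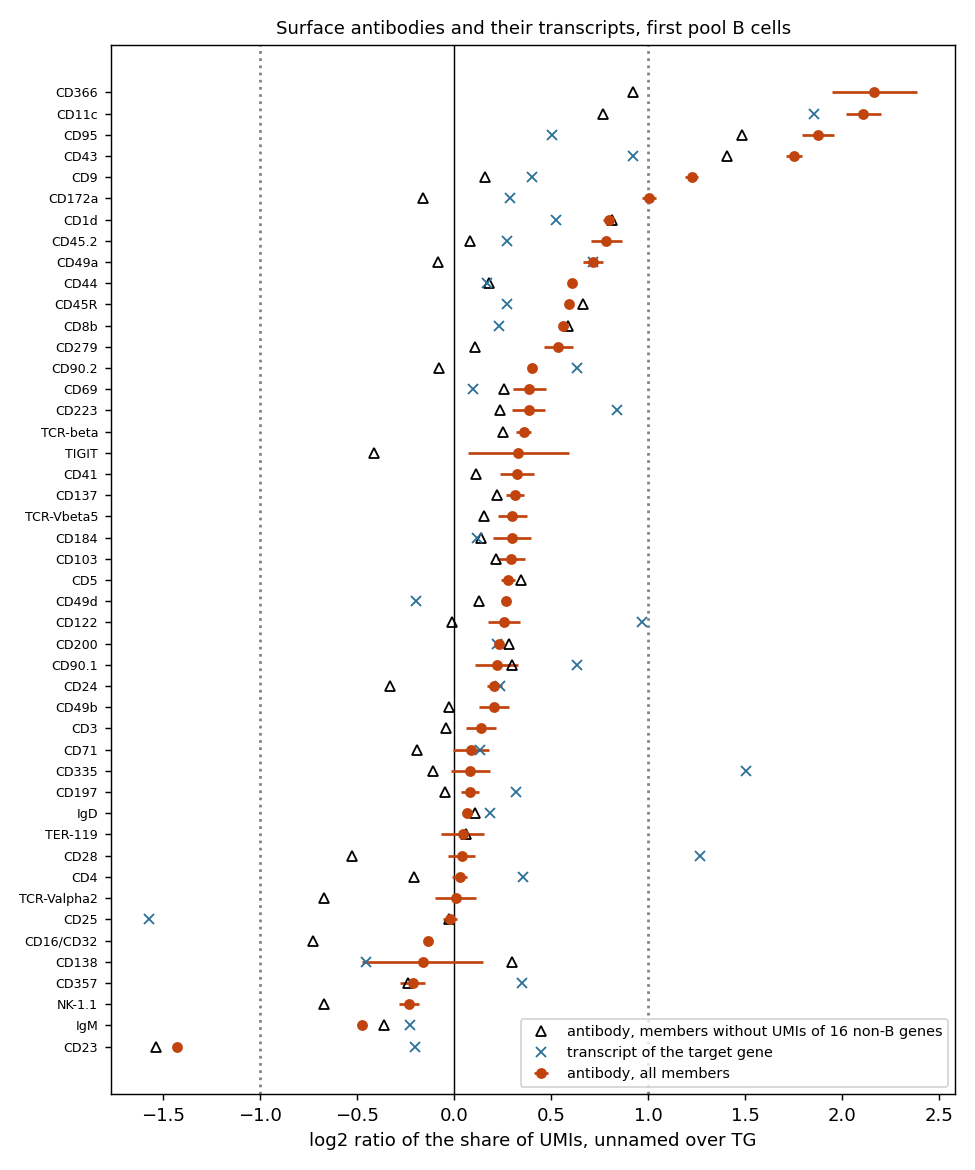
Log2 ratio of the share of antibody UMIs, unnamed over TG B cells, by antibody (circles, with 95% counting intervals), the same in members without UMIs of 16 genes of other cells (triangles), and the ratio of the target transcript where its gene had enough UMIs (crosses). CD23 at -1.43 lies apart from its transcript at -0.20, and CD366, CD11c, CD9 and CD172a move toward 0 in the triangles.

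Levels in the other cells of the study are given beside these values as a description. In WT B cells of the second library Iigp1 stood at 4.16 CPM and Igtp at 22.9 CPM, each below the TG level of 33.4 and 42.7 CPM and the unnamed level of 240.3 and 126 CPM. Library and genotype cannot be told apart in this order. The B cells of the second library without a WT row had 60.6 CPM of Iigp1. Against the same WT B cells, the GTPases had a median log2 ratio of 1.83 in unnamed B cells of the first library, with 15 of 16 at least 2-fold higher against 4.32% of all genes. In TG B cells it was 1.10, with 8 of 15 against 1.85%. In unnamed B cells of the second library it was 0.91, with 6 of 14 against 2.32%. Type I interferon targets were also higher than in these WT B cells. Their median was 0.60 in unnamed B cells of the first library, with 7 of 42 at least 2-fold higher. In TG B cells it was 0.45, also with 7 of 42, and in unnamed B cells of the second library 0.30, with 4 of 40. The shares of all genes are those given for the GTPases. All of these comparisons share the WT cells. Within the first library the 17 GTPases tested in T cells had a median log2 ratio of 0.49, with 2 at least 2-fold higher against 2.91% of all genes tested there, and the 10 tested in cells with Lyz2 had a median of 1.33, with all 10 at least 2-fold higher against 9.36% of genes. The sets of Lyz2 cells also differed in markers, with a median of 1.26 for those of macrophages and monocytes (3 of 4 at least 2-fold higher) and -1.24 for those of neutrophils (3 of 4 at least 2-fold lower), and their part in the Lyz2 values was not tested. MHC class I genes had a median of 0.16 in T cells and 0.80 in cells with Lyz2, beside 0.40 in B cells.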

How the data were processed

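Liver CD45+ cells were run on BD Rhapsody with 49 antibody-oligonucleotide reagents, and per the labels the authors mapped the reads to mm10 with STAR inside the BD pipeline. The deposited library files hold UMI counts of every called cell after correction of molecule errors, for 10026 and 24111 cells. The deposited metadata give a genotype, a cell type name, a cluster and a mitochondrial percent for cells kept by the authors, whose filter is not stated.

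Counts were summed per set and scaled to CPM, with exact Poisson, conditional binomial, Clopper-Pearson and Newcombe intervals and a pseudocount of 0.5 UMIs in ratios. Genes needed 50 UMIs over both sums. Named genes were members of gene lists and the 15 highest and 15 lowest ratios among genes with a total of 100 or more UMIs, 10 or more per set and 1 direction under every scaling, without receptor segments, sex genes and unnamed gene models. T cells for comparison held at least 2 Cd3e UMIs. The members and lists were chosen with earlier results of these data known, and the 16-gene exclusion and the placing by WT profiles were chosen after seeing the data. Scrublet (scanpy 1.11.5, expected rate 5%) marked doublets, which were kept. Alternatives were TMM scaling (edgeR 4.0.16, R 4.3.3), other totals, equal cell weights, thinning to 1000 UMIs, other minimums and stricter cell rules. Scripts used Python 3.11.15, numpy 2.4.6, scipy 1.17.1 and pandas 2.3.3, and the ratio and interval functions were tested on simulated data. Gene positions are those of GENCODE on GRCm38. A few genes and antibodies are not reported here.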

Additional observations from a re-analysis of the deposited data

Results flagged for a closer look

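Apol7c, an apolipoprotein L family gene, had opposite directions in B and T cells of the first library. In B cells the log2 ratio of unnamed over TG was -1.48, on 33 and 89 UMIs, and in T cells it was 3.12, on 61 and 6 UMIs. In TG B cells 3 cells held 100% of its UMIs and in unnamed B cells 3 cells held 90.9%. In clean B cells 2 and 0 UMIs of it were left, and on the mature-named side 4 and 0. The difference between B and T cells was not tested.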

How the results depend on the processing

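The median of the GTPases ranged from 0.75 to 1.04 over its 14 alternatives and that of MHC class I from 0.32 to 0.43, while that of MHC class II ranged from 0.01 to 0.14 and that of immediate early and NF-κB genes from -0.01 to 0.14. The follicular median of -0.01 was 0.064 with equal weight per cell, 0.079 with at least 5 Cd79a UMIs, -0.10 with TG members named B cells and 0.11 in clean cells. The 261 genes past 2-fold became 86 of 5758 after thinning, 4396 of 16413 with no minimum, 63 of 5342 with a minimum of 200 UMIs, 96 of 6406 without UMIs of 8 T, NK and myeloid genes, 411 of 8793 (361 higher, 50 lower) with TG members named B cells, 82 of 5827 in clean cells and 129 of 8089 (107 higher, 22 lower) on the mature-named side. The cause was not tested, although most of these settings also test fewer cells or genes. The setting with TG members named B cells took cells from the TG set only, leaving 1120 unnamed and 988 TG cells. The 8 antibodies past 2-fold became 1 by the median centred log ratio per cell and 4 in clean cells. Among ratios past 2-fold on 50 or more UMIs, direction turned for CD172a (-0.16, clean cells), Chil3 (1.38, TG members named B cells), Camp (0.84 with at least 5 Cd79a UMIs, 2.39 with TG members named B cells) and Ighg3 (1.896, mature-named side). Gbp7, at -0.03, lay between 0.22 and 0.92 with equal weight per cell, after thinning, without UMIs of 8 genes, in clean cells and on the mature-named side. In TG B cells 3 cells held 91.9% of Chil3 and 95.3% of Camp UMIs. No paired analysis was possible because both sets came from 1 library, and for the same reason no replicate could be left out. Scaling moved the median of all genes from 0.05 to -0.02 with TMM. On fewer UMIs it also turned for several genes, among them Ccr2, Ms4a6c, Pclaf and Chil3 in clean cells, Gas7 and Lmo7 on the mature-named side (0.50 each), and Apol7c in both, where the TG cells were at 0 and no fold is given. Depth limits the rare genes most, and over all members no ratio was read under 50 UMIs.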
